A study of Mus musculus with 9 samples.

Results

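Lungs injured by high-pressure mechanical ventilation were compared directly with lungs of mice injected with endotoxin. The comparison rests on 6 of the 9 expression arrays of a mouse study of ventilator-induced lung injury, 3 titled overventilation and 3 titled LPS, taken by those titles. The overventilation group underwent 3 h of mechanical ventilation with 25 cmH2O. The LPS group received lipopolysaccharide of an E. coli O127 serotype, injected at 3 mg/kg; the labels give neither the route nor the time from injection to sampling. The remaining 3 arrays, from control lung, are shown beside the others as the reference level. Strain, sex, age, anaesthesia and the handling of the controls are not stated for any group, so the time since the start of injury cannot be matched. Whether each sample is its own animal is not stated either, and p-values therefore measure only the spread between samples, possibly technical. The tissue is whole lung, in which fewer cells of a type and less RNA per cell cannot be told apart.

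Overventilation stretches the alveolar wall beyond its normal range. Epithelial and endothelial cells sense such stretch through adhesions, the cytoskeleton and ion channels, and answer with a fast wave of immediate early genes, growth factor signalling and matrix genes. Lipopolysaccharide is instead read by the receptor complex of TLR4 on macrophages and endothelium, which drives NF-kB and, through type I interferon, a set of antiviral genes. Both routes meet in many inflammatory genes, so a side-by-side comparison asks which transcripts are found with one injury and not with the other.

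All values below are log2 ratios to the mean of the 3 control arrays, so a value of 0 is the control mean and a value of 1 is a doubling. Of 10012 probes, 5710 were tested, 5155 of them with a gene symbol, standing for 5089 genes at 1 probe each. Each array has a lowest value, its floor, which was highest on overventilation array 3. There 42.4% of probes were at the floor, against 27.8% to 39.4% on the others. A lone low spot is a value more than 1.5 below all 8 other arrays. LPS array 2 had 291 of them, with a median of -3.81, against 1 to 41 on the others, and overventilation array 3 had 110 lone high values against 0 to 6. A further 139 probes were low on overventilation arrays 1 and 3 only, with medians of -2.95 and -3.14 there and -0.20 on array 2. Lone low spots and these 139 probes are named beside each gene they touch. The surfactant genes Sftpa1, Sftpc and Sftpd and the club cell gene Scgb1a1 showed no floor on any array, while the endothelial genes Cdh5 and Pecam1 were at the floor on 9 and 8 arrays.

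**Figure D1:**
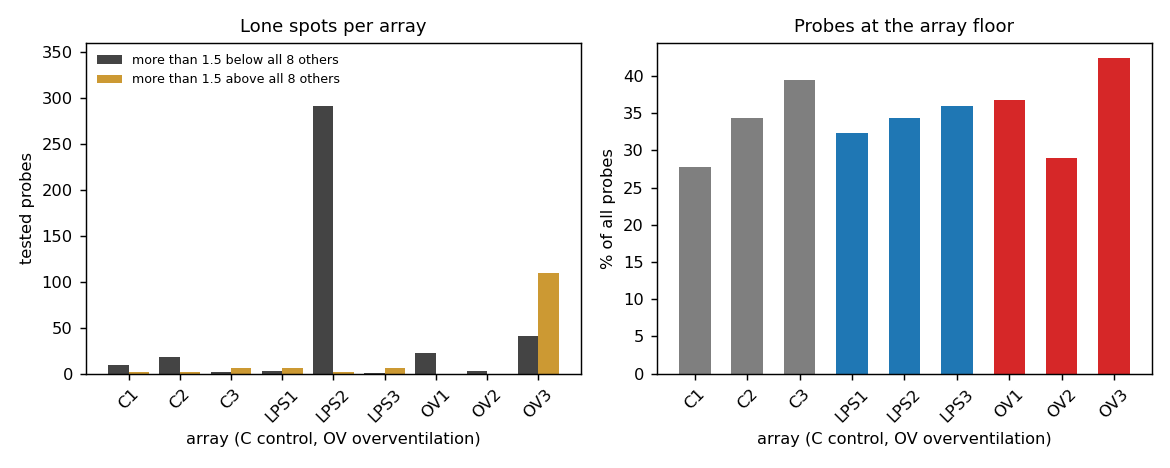
The left panel counts, for each of the 9 arrays, the tested probes whose value lies more than 1.5 (log2) below or above all 8 other arrays; the right panel gives the percent of all probes at the array's floor. C, LPS and OV stand for control, LPS and overventilation. LPS array 2 holds 291 lone low spots and overventilation array 3 holds 110 lone high ones and the highest share at the floor, 42.4%.

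Some arrays of different injuries were closer to each other than to arrays of their own group. Over the tested probes the Spearman correlation was 0.71 between LPS array 2 and overventilation array 2 and 0.56 between LPS array 3 and overventilation array 2, while the other 7 pairs across the injuries ranged from -0.02 to 0.37. Within the groups it was 0.31, 0.51 and 0.58 for the 3 pairs of overventilation arrays. Between LPS array 1 and LPS arrays 2 and 3 it was -0.05 and -0.09, and between the last 2 it was 0.48. The highest correlation of LPS array 1 with any array was 0.43, with control array 1. With control arrays 2 and 3 it was -0.14 and -0.38, and with overventilation array 1 it was 0.34. LPS array 1 was the lowest of its group for many of the response genes described below. All arrays are ratios to the same controls, which these values share, and they are given as a description.

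No probe separated the 2 injuries past the threshold of the test over all probes. By limma with Benjamini-Hochberg adjustment, 0 of 5710 probes had an adjusted p under 0.05 (0%), and the lowest adjusted p was 0.494. At an unadjusted p under 0.05 there were 204 probes higher with overventilation (3.57%) and 339 lower (5.94%). The 3 overventilation arrays lay above all 3 LPS arrays at 327 probes (5.73%) and below them at 312 (5.46%). An exact permutation test of 3 against 3 cannot give a two-sided p below 0.10, so non-overlap is used here as a description. Injury labels given at random would leave a share of about 0.10 of probes without overlap, both directions counted. Without overventilation replicate 3 the counts at an unadjusted p under 0.05 were 65 and 116, without replicate 1 there were 320 higher, and without replicate 2 there were 587 lower. Groups of 2 separate more easily, and the counts without overlap reached 820 above (without overventilation replicate 1) and 910 below (without overventilation replicate 2). Of the 327 probes 21 had a lone low spot on LPS array 2, and of the 312 probes 45 were low on overventilation arrays 1 and 3 only.

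When the controls were included, overventilation stood apart at more probes than LPS, but the counts were close to each other without LPS replicate 1. The 3 overventilation arrays lay above all 6 others at 166 probes (2.91%) and below all 6 others at 176 (3.08%), 37 of the latter being among the probes low on arrays 1 and 3 only. The 3 LPS arrays lay above all 6 others at 22 probes (0.385%) and below at 34 (0.595%). None of these shares was tested against those of randomly labelled arrays, so the counts are a description. Without LPS replicate 1, LPS was above all others at 198 probes and overventilation at 189, and below at 204 and 244. Without LPS replicate 2 the counts were 61 and 330 above and 145 and 271 below, in the same order. Those of overventilation reached 525 above without overventilation replicate 1 and 701 below without overventilation replicate 2. No probe of 4690 with a known distance from the floor was above the common floor on all arrays of one injury and at the floor on all arrays of the other (0% in either direction). With each array's own floor there were 15 such probes for overventilation (0.32%) and 4 for LPS (0.0853%). From these 15, genes were named after their values were seen. They included Rassf1, a tumour suppressor that binds microtubules, at 0.47, 1.25 and 3.17 above the floor on overventilation arrays 1 to 3. It was at the floor on all 6 other arrays, as were Btg2, an antiproliferative immediate early gene, Nipal1 and Esyt2. The stretch-gated calcium channel gene Trpv4 was among the 15 as well, at 0.34, 1.10 and 0.10 above the floor, with 1 control array also above it.

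The genes farthest apart in favour of overventilation were Gsta2 and Tnfrsf12a. Gsta2 encodes a glutathione transferase that conjugates products of lipid peroxidation. Its LPS values were -0.28, 0.61 and 0.89 (arrays 1 to 3, the order kept below), and its overventilation values 2.24, 2.50 and 3.91. All LPS values were within 1 of the control mean and all overventilation values were more than 2 above it. The difference was 2.48 with a standard error of 0.49, or 5.56-fold (limma adjusted p = 0.494). Tnfrsf12a, the receptor of the cytokine TWEAK, which is induced in injured epithelium, lay at -0.45, 0.96 and 1.09 with LPS and at 2.37, 2.68 and 5.24 with overventilation. The last value was a lone high one, and the other overventilation arrays also lay above every LPS array. Its difference was 2.89 with a standard error of 0.72 (limma adjusted p = 0.494).

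Ccn1 had a narrow spread in both groups. It encodes a secreted matricellular protein and is a classical target of the stretch-sensitive factors YAP and SRF. Its LPS levels of 0.00, 0.52 and -0.20 stayed near those of the controls (-0.29 to 0.45), and it reached 1.95, 1.41 and 1.57 with overventilation. The difference was 1.54, with an unadjusted 95% interval of 0.77 to 2.30 (limma adjusted p = 0.494). Other genes with wide gaps were of another kind. Srsf5, a splicing factor gene, lay at 0.47, 0.48 and 0.17 with LPS and at 1.45, 1.42 and 2.40 with overventilation. Hspb8, a small heat shock protein gene of the chaperone-assisted autophagy that clears stretched actin-binding proteins, lay at 0.06, 0.36 and -0.25 with LPS and at 1.76, 1.30 and 1.21 with overventilation. Neither gene's groups overlapped, and the lowest overventilation value was 0.94 above the highest LPS value for Srsf5 and 0.85 above it for Hspb8.

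The other genes with the widest gaps were Necab2, Arc, Clec4e, Cd24a, Cdh23, Phf10 and Fgfbp1. Necab2, a neuronal calcium-binding protein gene, lay at 2.51, 2.39 and 2.48 with overventilation and at -1.06, 1.53 and 0.91 with LPS. Clec4e encodes Mincle, a receptor of myeloid cells for mycobacterial glycolipid and for dying cells, and lay at 2.48, 1.70 and 2.03 with overventilation against -0.01, 0.82 and 0.93 with LPS. Cd24a, a surface glycoprotein gene of epithelium and leukocytes, had a difference of 1.20, and Cdh23, an atypical cadherin gene, one of 1.32. At Phf10, a chromatin remodelling subunit gene, and Fgfbp1, a carrier of fibroblast growth factors, LPS array 2 was a lone low spot. Without that spot the difference was 1.32 in place of 2.13 for Phf10 and 1.07 in place of 1.89 for Fgfbp1.

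**Figure D2:**
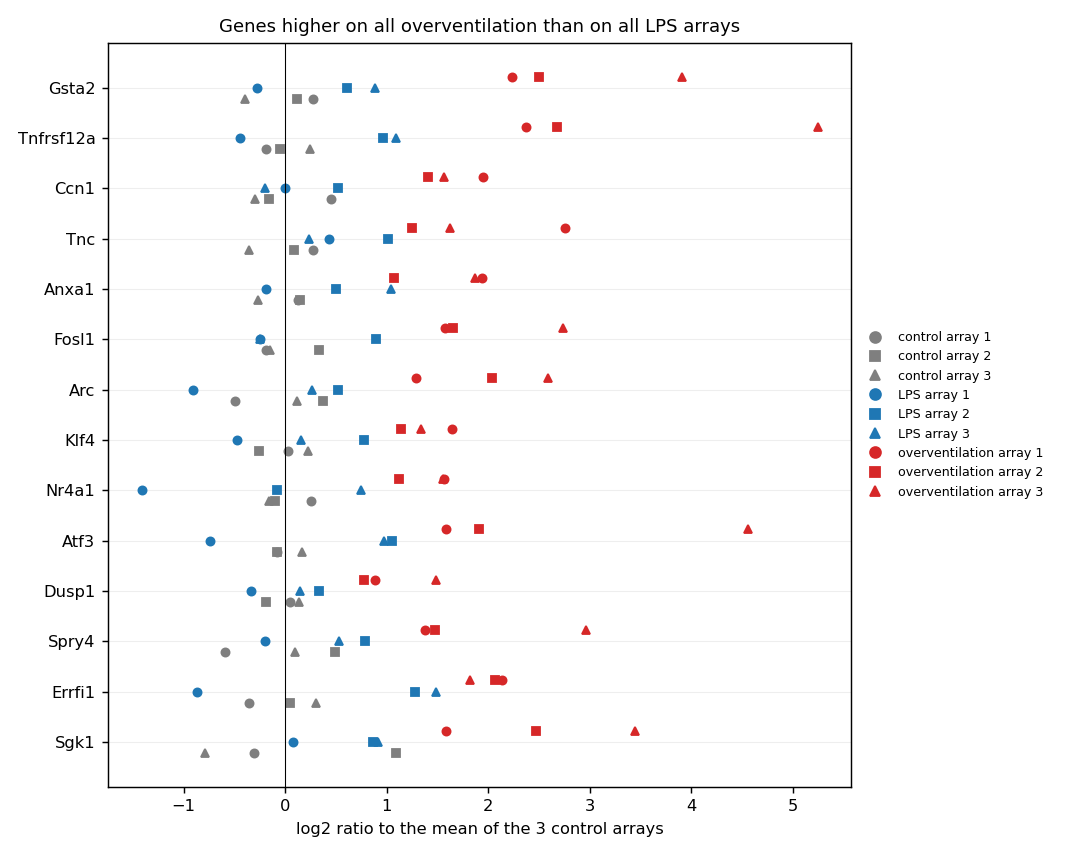
The x axis is the log2 ratio to the control mean, and each gene has 9 points, 1 per array, coloured by group and shaped by array number. For all 14 genes the 3 red overventilation points lie to the right of the 3 blue LPS points; overventilation array 3 is far to the right for Tnfrsf12a (5.24) and Atf3 (4.56).

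Immediate early genes, transcribed within minutes of a stimulus without new protein synthesis, had the largest share of members higher on every overventilation array than on every LPS array among the 31 response lists. Of 39 genes on the list 23 were tested, and 8 of these 23 (34.8%) were without overlap in that direction, among 5.88% of all genes; none was in the other direction, among 5.54%. None passed the adjusted limma test. The median difference of the list was 0.45, against 0.07 over all genes, and the list median was -0.05, 0.60 and 0.34 for LPS samples 1 to 3 and 0.90, 1.14 and 0.47 for overventilation. These list medians overlap, since LPS array 2 lies above overventilation array 3, and without LPS array 2 the median difference was 0.82. Of the 23 genes 11 were above all controls on every overventilation array. None was above them on every LPS array, of which array 1 had a list median of -0.05. The same counts over all genes are not given here, so these are not read as particular to this list.

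Fosl1, which encodes the AP-1 subunit FRA-1, showed the pattern clearly. It lay at -0.25, 0.89 and -0.25 with LPS and at 1.57, 1.65 and 2.74 with overventilation, with a difference of 1.86 and a standard error of 0.44 (limma adjusted p = 0.494). On LPS arrays 1 and 3 it was below the control mean. Arc, an activity-regulated gene that responds to serum response factor, lay at -0.91, 0.52 and 0.26 with LPS and at 1.29, 2.04 and 2.59 with overventilation. Nr4a1, an orphan nuclear receptor gene, lay at -1.41, -0.08 and 0.75 with LPS and at 1.56, 1.12 and 1.55 with overventilation. Both had LPS values on either side of the control mean and overventilation values above 1 throughout. Klf4, a zinc finger factor gene that responds to shear stress in endothelium, differed by 1.22 with a standard error of 0.37. Atf3, a stress-induced repressor of the ATF/CREB family, lay at -0.73, 1.05 and 0.97 with LPS and at 1.58, 1.91 and 4.56 with overventilation. Its mean with overventilation leans on array 3, while arrays 1 and 2 were also above the highest LPS array.

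Genes known to respond to cell stretch lay higher with overventilation by their median. Of 35 listed genes 22 were tested, 5 of these 22 (22.7%, among 5.88% of all genes) lay higher on every overventilation array than on every LPS array, and none lay lower (5.54% of all genes). The median difference was 0.76, and the list median was -0.03, 0.73 and 0.31 with LPS and 0.81, 1.16 and 1.60 with overventilation. These list medians do not overlap, and neither do those of the coagulation, endoplasmic reticulum stress and cytoskeleton lists. With no filter on low probes the median difference was 0.15. Besides Ccn1 and Tnfrsf12a the 5 genes were Tnc, Anxa1 and Lox. Tnc, the gene of the matrix glycoprotein tenascin C, which appears in injured and stretched tissue, lay at 0.43, 1.02 and 0.23 with LPS and at 2.75, 1.25 and 1.62 with overventilation. Anxa1 encodes a phospholipid-binding protein that restrains inflammation, and lay at -0.19, 0.50 and 1.04 with LPS against 1.94, 1.08 and 1.87. The gap was narrow for Anxa1, whose lowest overventilation value exceeded its highest LPS value by 0.03. Lox, the collagen and elastin cross-linking enzyme gene, differed by 1.12 with an unadjusted 95% interval of -0.01 to 2.25.

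Other stretch-responsive genes did not separate the injuries. Akap12, a scaffold of protein kinases A and C, stood at 2.84, 3.40 and 3.68 with overventilation and at 0.00, 3.25 and 2.52 with LPS, so that LPS array 2 lay inside the range of the ventilated lungs. Plaur, the urokinase receptor gene, lay at 4.65, -0.72 and 1.23 with LPS, a range that spans that of the ventilated lungs, and at 2.76, 1.30 and 2.79 with overventilation. Its difference of 0.56 turned to -0.66 without LPS replicate 2. Ptgs2, which encodes the inducible cyclooxygenase, lay at -0.52, 0.05 and 0.47 with LPS and at 0.46, 0.75 and 2.88 with overventilation. The highest LPS and lowest overventilation values of Ptgs2 differed by less than 0.01, and array 3 carries much of the mean.

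Feedback inhibitors of growth factor and cytokine signalling were the next list. Of 15 tested members 4 (26.7%) were higher on every overventilation array, among 5.88% of all genes, and none was lower; the median difference was 0.13. Leaving out overventilation replicate 1 or LPS replicate 2 turned that median to -0.01. Dusp1, a phosphatase that switches off p38 and JNK kinases, lay at -0.33, 0.33 and 0.15 with LPS and at 0.88, 0.77 and 1.48 with overventilation. Spry4, an inhibitor of the Ras pathway, lay at -0.20, 0.78 and 0.53 and at 1.38, 1.47 and 2.97. Errfi1 encodes MIG6, an inhibitor of the EGF receptor, and lay at -0.87, 1.28 and 1.49 with LPS and at 2.14, 2.07 and 1.82 with overventilation. In all of them LPS array 1 was the lowest of the LPS and overventilation arrays. Cish, an inhibitor of STAT5 signalling, differed by 1.03, with 0.08 and 0.62 on overventilation arrays 1 and 2 and 1.95 on array 3. Its lowest overventilation value exceeded its highest LPS value by 0.01. The other feedback genes fixed by name overlapped. Socs3, an inhibitor of interleukin 6 signalling, lay at -0.22, 1.09 and 0.89 with LPS and at 1.08, 0.90 and 1.87 with overventilation, and Dusp6, an ERK phosphatase gene, had the higher mean with LPS (2.00 against 0.82), with -0.03, 2.82 and -0.34 on its 3 arrays.

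The promoters of Dusp1 and Errfi1 are shown because both genes were higher on every overventilation array and both carry the cAMP response element, the site of the CREB and ATF factors. Each sequence holds the 250 bases before the annotated start in RefSeq (GRCm38.p6), written 5′ to 3′ on the gene's strand, at chr17:26508473-26508722 on the minus strand for Dusp1 and chr4:150854820-150855069 on the plus strand for Errfi1. Il6, at chr5:30012864-30013113 on the plus strand, is shown for the AP-1 and kB matches that meet in it. Capitals mark TGACGTCA (the cAMP response element), TGANTCA (AP-1) and the kB site, searched on both strands.
Dusp1: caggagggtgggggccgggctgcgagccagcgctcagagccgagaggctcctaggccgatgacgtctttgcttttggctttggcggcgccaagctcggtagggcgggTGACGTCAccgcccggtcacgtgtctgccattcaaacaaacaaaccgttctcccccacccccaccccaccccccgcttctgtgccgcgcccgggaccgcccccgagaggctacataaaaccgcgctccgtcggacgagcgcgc
Errfi1: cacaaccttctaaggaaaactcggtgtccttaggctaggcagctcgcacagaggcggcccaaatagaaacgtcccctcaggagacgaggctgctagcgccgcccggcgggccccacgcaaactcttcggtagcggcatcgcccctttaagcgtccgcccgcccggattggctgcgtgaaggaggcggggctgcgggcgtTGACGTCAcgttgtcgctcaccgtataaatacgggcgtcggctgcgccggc
Il6: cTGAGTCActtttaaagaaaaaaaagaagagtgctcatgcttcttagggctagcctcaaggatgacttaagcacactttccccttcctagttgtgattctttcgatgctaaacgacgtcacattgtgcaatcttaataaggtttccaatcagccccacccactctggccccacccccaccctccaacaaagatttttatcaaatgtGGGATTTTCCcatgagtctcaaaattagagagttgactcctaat

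The response element starts 143 bases before the start in Dusp1 and 51 bases before it in Errfi1. In Il6 the kB match starts 44 bases before the start. Of 107 genes named here 81 had a promoter in the table, and 4 of these held TGACGTCA, namely Dusp1, Errfi1, the phosphatase subunit gene Ppp1r15a and the claudin gene Cldn7, while 1.55% of all 32851 promoters held it. All 4 had been named for lying higher on every overventilation array than on every LPS array, so their shared direction follows from the choice. TGANTCA stood in 11 of the 81 and in 6.75% of all promoters, and the kB site in 7 of the 81 and in 7.25%. The CArG box, the site of serum response factor, was in 1 of the 81 (1.47% of all) and TGACNNNGC, the antioxidant response element, in 8 (10.2% of all). The genes were picked with their values known, and a match of letters is a description of the sequence.

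Of 24 tested cytokine genes, 4 lay higher on every overventilation array (Il6, Il11, Il21 and Tnfsf9), or 16.7% against 5.88% of all genes. Only Il12a lay lower, or 4.17% against 5.54% of all genes. The median difference was 0.16 and turned to -0.17 without LPS replicate 1. Il6, the main inducer of the acute phase response, lay at -0.79, -3.43 and 1.41 with LPS and at 2.52, 1.77 and 2.40 with overventilation. LPS array 2 was a lone low spot there. With that value set aside the difference was 1.92 in place of 3.17, and the overventilation arrays were still above the other LPS arrays. Il11, a cytokine of the same family made by stretched and TGF-beta-treated stromal cells, lay at 0.31, 1.48 and 0.56 with LPS and at 2.70, 1.49 and 1.88 with overventilation. The highest LPS value and the lowest overventilation value were both near 1.48. Il12a, which encodes the p35 subunit of interleukin 12, was lower with overventilation (-1.05, -0.95 and -0.38) than with LPS (0.31, -0.07 and -0.21). Il1b, the gene of interleukin 1 beta, overlapped, at -0.04, 0.85 and 0.83 with overventilation and -0.84, 1.09 and 0.79 with LPS.

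Stress pathways of the endoplasmic reticulum and of amino acid shortage had members on either side. Of 21 tested genes 5 were higher on every overventilation array (23.8%, among 5.88% of all genes) and 2 lower (9.52%, among 5.54%). The median difference was 0.16 and turned to -0.06 without LPS replicate 3. Ddit3, the gene of the stress factor CHOP, lay at -0.75, -0.09 and -0.28 with LPS and at 0.73, 0.37 and 0.58 with overventilation, on opposite sides of 0 on all 6 arrays. Its target Ppp1r15a, also called GADD34, which restores translation after stress, lay at -0.35, 0.18 and -0.61 with LPS and at 1.17, 0.66 and 0.72 with overventilation. The control values of Ppp1r15a ran from -0.68 to 0.94 and thus reached into the overventilation range. Ern1, the sensor IRE1, differed by 0.68, and Ddit4, an inhibitor of mTORC1, by 1.10. Dnajc3, a co-chaperone of that compartment, was lower with overventilation and belongs to the probes low on arrays 1 and 3 only (-3.43, -0.37 and -3.27). The other lower gene differed by -1.09 at the probe counted and by 0.02 at its second probe.

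Of 15 tested targets of glucocorticoids and of the circadian clock, 4 were higher on every overventilation array (26.7%, among 5.88% of all genes). These were Sgk1, Cry1, Dusp1 and Errfi1, and the last 2 were already counted in the feedback list. The 1 that was lower, Dbp, made 6.67%, near the 5.54% of all genes. The median difference was -0.13 and turned to 0.05 with quantile normalization. Sgk1, a kinase that raises epithelial sodium channel activity, lay at 0.07, 0.87 and 0.92 with LPS and at 1.59, 2.47 and 3.45 with overventilation. Its control arrays ranged from -0.79 to 1.09. Dbp, an output gene of the clock, lay at -0.10, 0.00 and 1.86 with LPS and at -1.85, -0.52 and -1.25 with overventilation, a difference of -1.80 (limma adjusted p = 0.494). Cry1, a clock repressor gene, had a difference of 0.97, with 0.02 and 0.12 on overventilation arrays 1 and 2 and 1.34 on array 3. The time of day of sampling is not stated, and its part in the result was not tested.

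Genes of the cytoskeleton and of tight junctions were mostly higher with overventilation. Of 27 tested members 22 had a mean difference above 0, against 2790 of all 5089 genes. On every overventilation array 4 were higher (14.8%, among 5.88% of all genes), and none was lower; the median difference was 0.21. Tubb6, a tubulin gene, lay at -0.48, 1.51 and 0.95 with LPS and at 2.01, 1.75 and 2.33 with overventilation. Tuba1c, another tubulin gene, lay at 0.13, 0.76 and 0.03 and at 1.35, 1.23 and 2.96. Cldn4, a claudin that tightens the alveolar barrier to fluid, lay at 0.47, -0.25 and 1.14 with LPS and at 2.40, 1.67 and 1.26 with overventilation, and its controls ran from -1.07 to 1.07. Cldn7 had a lone low spot on LPS array 2 (-4.27), and its difference was 1.14 without it and 2.50 with it. Of 15 tested genes of ion and water transport 3 were higher on every overventilation array (20%, among 5.88% of all genes) and 1 lower (6.67%, near 5.54%). The higher ones were Sgk1, Atp1b1, a subunit of the sodium pump, with a difference of 1.12, and the chloride channel gene Cftr with 1.13. Atp1b1 lay at 1.43, 1.24 and 3.01 with overventilation, the last a lone high value. Cftr lay at 1.34, 2.28 and 1.68, and its control array 2 reached 1.34 as well.

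Antioxidant genes and NRF2 targets had 5 of 34 tested members higher on every overventilation array (14.7%, among 5.88% of all genes) and 1 lower (2.94%, among 5.54%), with a median difference of 0.33. Apart from Gsta2 these included Gpx2, a glutathione peroxidase gene of epithelium, at -0.46, 0.57 and 0.29 with LPS and 0.61, 1.19 and 2.80 with overventilation. Sod1, the cytosolic superoxide dismutase gene, lay at -0.35, -0.13 and 0.28 and at 0.71, 0.29 and 1.40, a gap of under 0.01. The ferritin light chain gene Ftl1 stood at 3.96 on overventilation array 3 and at 1.53 and 1.62 on arrays 1 and 2, with LPS at 0.78, 1.23 and 0.73. Hmox1, the heme oxygenase gene, overlapped, with a difference of 0.58. Gsta4 was the member on the lower side, and it was low on overventilation arrays 1 and 3 only.

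Lipid mediator genes and alveolar type I markers had members without overlap on the higher side. Ptges, the inducible prostaglandin E synthase gene, lay at -0.08, 0.39 and 0.51 with LPS and at 1.04, 0.58 and 1.84 with overventilation. Hpgd, which breaks prostaglandins down, lay at -0.63, -0.56 and -0.77 with LPS and at -0.13, 0.86 and 1.09. Synthesis and breakdown enzymes were thus both higher on every overventilation array than on every LPS array. The controls of Hpgd ran from -0.43 to 0.76, so LPS was below them and overventilation overlapped them. Of 16 tested genes of this list 3 were without overlap (18.8%, among 5.88% of all genes), with Anxa1 as the third, and the median difference was 0.06. Among 5 tested markers of alveolar type I cells, the flat cells that line the air space, 2 were higher on every overventilation array, among 5.88% of all genes, and 2 others had a mean difference below 0. Ager, the receptor RAGE, stood at 4.48 on overventilation array 3 and at 1.19 and 1.14 on arrays 1 and 2, against 0.84, 1.01 and 0.05 with LPS. Pdpn, podoplanin, lay at 0.71, -0.22 and 0.63 against -0.33, -0.26 and -1.05. Its controls ran from -0.10 to 0.18, so every LPS array was below them, as was overventilation array 2. For the type I markers the share of cells was not measured, and its part in the result was not tested.

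The genes best known from endotoxin overlapped between the injuries for the most part. Interferon response genes had a median difference of 0.03, which turned to -0.12 with quantile normalization and -0.01 with arrays centred on their medians, with 14 of 28 tested members above 0 and 14 below. The list median was 0.83, 1.13 and 0.78 on the LPS arrays and 0.90, 0.97 and 0.80 on the overventilation arrays, against -0.23 to 0.23 on the controls. Ifit1, an antiviral RNA-binding protein gene, lay at 1.28, 3.28 and 2.51 with LPS and at 1.91, 2.63 and 2.10 with overventilation, and its difference was -0.14 with an unadjusted 95% interval of -1.5 to 1.21. Mx1, an antiviral GTPase gene, lay at 1.23, 3.24 and 1.62 and at 1.68, 1.70 and 1.24. Isg20, an exonuclease gene, differed by -0.35, and Mx2 and Irgm1 by 1.03 and 0.89. For these 5 genes the arrays overlapped, and without LPS replicate 2 the difference of Ifit1 was 0.32 and that of Mx1 0.11. Those intervals are wide, so an equal response is not shown.

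Of the 28 tested interferon genes 1 lay on each side without overlap (3.57%), near the 5.88% and 5.54% of all genes. Iigp1, an immunity-related GTPase gene, was higher on every overventilation array (1.79, 1.94 and 2.76) than on every LPS array (1.01, -1.87 and 1.08). Psmb10, an immunoproteasome subunit gene, lay at 0.38, -0.01 and -0.44 with LPS and at -0.92, -0.75 and -2.38 with overventilation, below all controls in the latter. Targets of NF-kB had none without overlap among 15 tested, where 5.88% of all genes lay higher and 5.54% lower. Of the 15 targets 12 had a mean difference above 0, against 2790 of all 5089 genes, and the median difference was 0.62. The NF-kB median was -0.02, 1.13 and 0.75 with LPS and 0.86, 0.65 and 1.69 with overventilation. The median difference was 0.23 without LPS replicate 1, 0.26 without overventilation replicate 3 and 0.31 with quantile normalization. Vcam1, an endothelial adhesion molecule gene, lay at 0.16, 1.55 and 1.06 with LPS and at 1.54, 2.27 and 3.45 with overventilation. Sele, the gene of E-selectin, lay at 2.29 on overventilation array 3 and between -0.68 and 0.30 on the other 5 arrays. Nfkbia, the inhibitor gene of NF-kB itself, had a lone low spot on LPS array 1 (-2.10), without which its difference turned from 0.46 to -0.55.

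**Figure D3:**
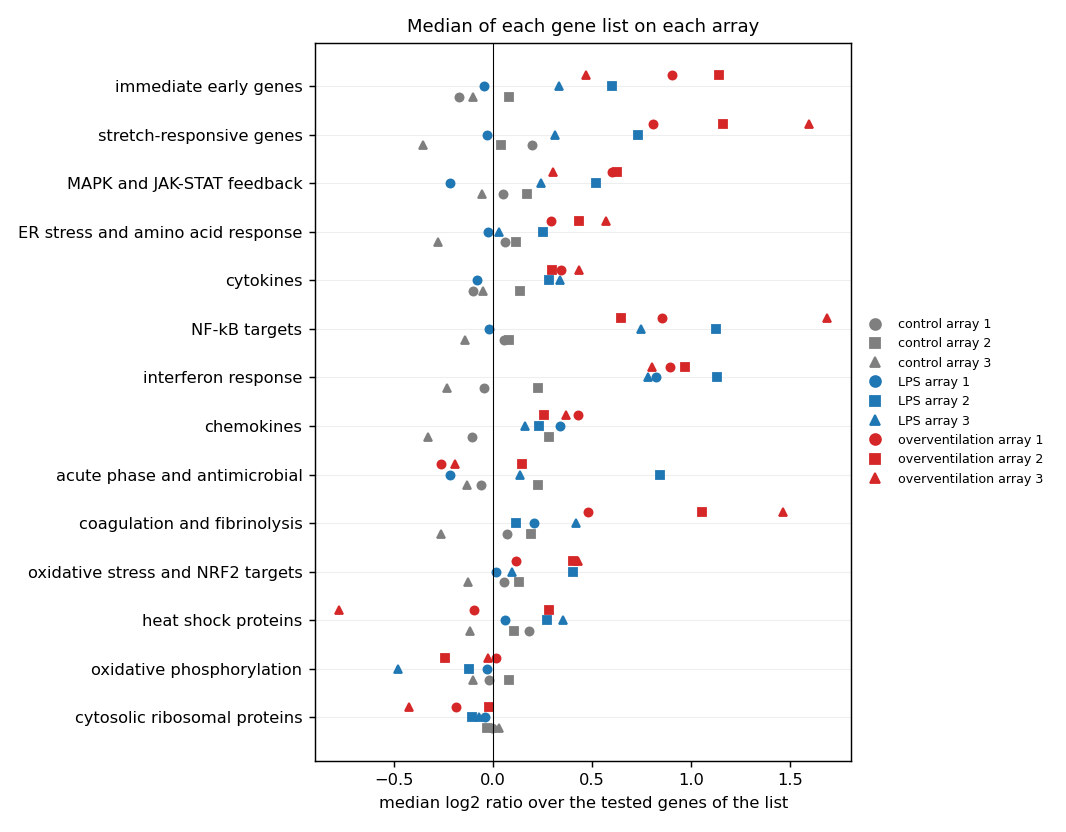
The x axis is the median log2 ratio over the tested genes of a list, with 1 point per array, for 14 lists. The stretch-responsive list is apart between the injuries (0.81 to 1.60 with overventilation against -0.03 to 0.73 with LPS). The coagulation list (0.48 to 1.47 against 0.12 to 0.42) and the endoplasmic reticulum stress list (0.29 to 0.57 against -0.02 to 0.25) are apart as well. The interferon list lies at 0.78 to 1.13 on all 6 arrays.

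Chemokine genes, which call leukocytes into tissue, mostly overlapped. Of 29 tested, 2 were higher on every overventilation array (6.9%, near the 5.88% of all genes) and 3 lower (10.3%, among 5.54%). Their median difference was 0.23. It fell to 0.00 with quantile normalization and turned to -0.05 without overventilation replicate 1, -0.02 without overventilation replicate 3 and -0.01 without LPS replicate 3. Ccl2, which attracts monocytes, lay at 1.58, 2.34 and 1.31 with LPS and at 3.17, 1.82 and 3.62 with overventilation, with overlap at the second arrays. Cxcl1, a neutrophil attractant, lay at -0.66, 2.32 and 1.32 and at 1.42, 1.72 and 1.11, and its difference of 0.43 turned to -0.40 without LPS replicate 1. The interferon-induced attractants of T cells overlapped as well. Cxcl10 lay at 0.18, 3.06 and 1.44 with LPS and at 2.41, 3.01 and 5.23 with overventilation, Cxcl9 differed by 0.56 (-0.11 without LPS replicate 3), and Cxcl11 by 0.72.

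The 3 chemokine genes that were lower on every overventilation array were Ccl5, Ccl22 and Cxcl14. Ccl5, a T cell and eosinophil attractant also called RANTES, lay at 0.19, 0.27 and 0.65 with LPS and at -0.84, -0.70 and -2.42 with overventilation. Overventilation array 3 was a lone low spot there, without which the difference was -1.14 in place of -1.69. The controls of Ccl5 ran from -0.51 to 0.83, so LPS was inside and overventilation below them. Ccl22, a ligand of the receptor CCR4 made by dendritic cells and macrophages, lay at 0.42, 0.38 and 0.72 with LPS and at -0.30, 0.26 and 0.30 with overventilation. Cxcl14, a chemokine of resting epithelium, was low in both injuries, at -0.20, -0.70 and -1.06 with LPS and at -4.17, -1.35 and -3.44 with overventilation, and belongs to the probes low on overventilation arrays 1 and 3 only. On the higher side were Pf4, the platelet factor 4 gene, at 0.18, 0.23 and -0.20 with LPS and at 0.86, 0.86 and 2.50 with overventilation, and Cxcl16. The latter had a lone low spot on LPS array 2 (-4.55), without which its difference was 0.78.

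**Figure D4:**
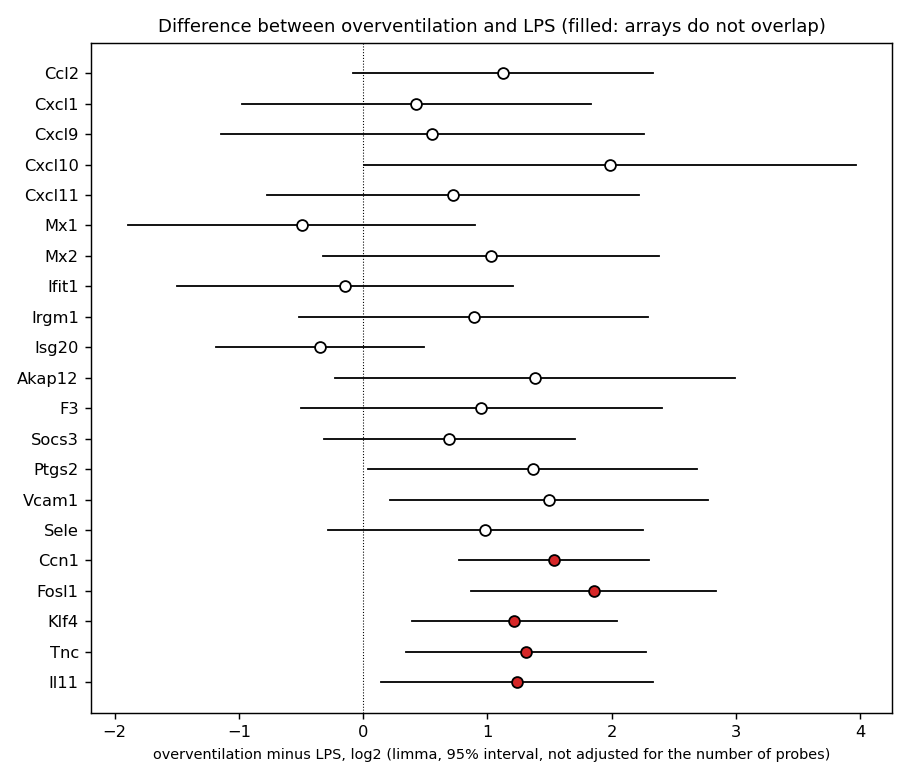
The x axis is the overventilation minus LPS difference (log2) of 21 genes, with the limma estimate as a point and its unadjusted 95% interval as a line; filled points mark genes whose 3 overventilation arrays all lie above the 3 LPS arrays. Ccn1 (1.54) and Fosl1 (1.86) have intervals above 0, while those of Ifit1 and Mx1 span 0.

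Across the 37 inflammatory and injury genes fixed by name, 34 had a named probe and 33 were tested. The 37 were chosen with earlier results of these data known, so the counts below are a description of that choice. Of these 33, the arrays overlapped at 25, 8 were higher on every overventilation array (5.88% of all genes were), and none was lower on every one (5.54% of all genes). The mean was higher with overventilation at 28 and with LPS at 5, while it was higher with overventilation at 2790 of all 5089 genes. F3, the gene of tissue factor, which starts coagulation, was one of the overlapping genes, at -0.23, 2.37 and 1.83 with LPS and at 1.39, 2.69 and 2.76 with overventilation. Saa3, an acute phase gene of the lung, differed by 0.38. The whole acute phase list had no member without overlap among 19 tested, and a median difference of 0.02 that turned to -0.03 with quantile normalization.

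The 22 probes above all 6 other arrays with LPS were fewer than the 166 of overventilation, although not without LPS replicate 1 (198 against 189). Among them were Stat4, Icos and Ccr4. Stat4, which transmits interleukin 12 signals, lay at 0.68, 0.91 and 0.78 with LPS and at -1.03, 0.18 and -0.10 with overventilation. Icos, a costimulatory receptor of T cells, lay at 0.78, 0.76 and 1.23 with LPS and at 0.60, 0.37 and -0.46 with overventilation. Ccr4, the receptor of Ccl22, lay at 0.43, 0.41 and 0.25 with LPS and at 0.01, -0.20 and -0.52. Receptor and ligand were thus both higher on every LPS array, by 0.60 for Ccr4 and 0.42 for Ccl22. The 8 tested markers of T cells had a median difference of -0.44, with 6 of them below 0, and their median was 0.79, -0.16 and -0.14 with LPS and 0.05, 0.00 and -0.28 with overventilation. Of these markers 1 was without overlap (12.5%, among 5.88% of all genes), and it was higher with overventilation. It was Cd247, a chain of the T cell receptor complex, at -0.45, 0.03 and -0.22 with LPS and 0.12, 0.05 and 0.58 with overventilation. The part of T cell markers in the levels of Stat4, Icos and Ccr4 was not tested.

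Mitd1 had the widest gap of LPS above both other groups, and Siah1a that of LPS above overventilation. Mitd1, which acts in the last step of cell division, lay at 0.87, 1.34 and 0.89 with LPS and at 0.19, 0.19 and 0.10 with overventilation, close to the control mean. Siah1a, a ubiquitin ligase gene, lay at 0.74, 0.45 and 0.55 with LPS and at -0.93, -0.50 and -0.93 with overventilation, where arrays 1 and 3 were at the floor. A value at the floor is only a bound, so the difference of -1.36 may understate the distance. Col17a1, a collagen gene of basal cell adhesion, was higher on every LPS array by 0.80.

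The 34 probes below all 6 other arrays with LPS included those of Dph6, which had the widest gap, Lrrc6 and Spa17. Spa17, a sperm and cilium protein gene, lay at -1.02, -0.46 and -1.68 with LPS and at 0.56, 0.01 and 0.98 with overventilation. Lrrc6, needed to assemble the dynein arms of motile cilia, lay at -1.55, -0.88 and -1.59 with LPS and at -0.30, -0.55 and -0.63 with overventilation. Both cilium genes were below all controls on every LPS array, and Lrrc6 was below them on every overventilation array as well. The whole list of ciliated cell markers, which holds Spa17 and not Lrrc6, had 6 tested genes, 1 of them without overlap, and a median difference of -0.32, opposite in sign to these genes. Dph6, an enzyme gene of diphthamide synthesis, lay at -0.75, -0.85 and -0.73 with LPS and at 0.26, -0.17 and 0.62 with overventilation.

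Other genes lay lower on every overventilation array than on every LPS array. Mmp11, a matrix metalloproteinase gene of stromal cells, lay at -2.36, -2.25 and -2.45 with overventilation, at -0.89, -0.81 and -1.35 with LPS and at -0.30 to 0.15 in controls. It was thus below the controls in both injuries and lower in the ventilated lungs, by 1.34 with a standard error of 0.30 (limma adjusted p = 0.494). Hc, the gene of complement component 5, lay at -2.33, -1.90 and -3.69 with overventilation and at -0.07, -0.60 and -1.25 with LPS. Serping1, the inhibitor gene of complement component 1, lay at -0.50, -0.78 and -1.22 against 0.16, 0.20 and -0.35. Of 17 tested complement genes these 2 were lower on every overventilation array (11.8%, among 5.54% of all genes), 1 was higher, and the median difference was -0.19.

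Tlr6, a receptor that pairs with TLR2 to bind bacterial lipopeptides, lay at -1.36, -0.99 and -1.67 with overventilation and at -0.52, 0.32 and -0.32 with LPS. It was the only member without overlap among 16 tested genes of TLR4 signalling and related receptors, or 6.25%, near the 5.54% of all genes. Dhrs3, which turns retinal back to retinol, lay at -1.33, -1.16 and -2.59 with overventilation and at -0.44, -0.24 and 0.15 with LPS. Amacr, a peroxisomal racemase gene, and Bet1, a vesicle fusion gene, were at the floor on overventilation arrays 1 and 3, and differed by -1.13 and -1.34. Nanp, a sialic acid synthesis gene, differed by -1.56.

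Some of the lowest values belong to probes low on overventilation arrays 1 and 3 only. Nr2f2, the nuclear receptor gene COUP-TFII of veins and stroma, lay at -4.29, -1.57 and -5.33 with overventilation and at -0.24, -0.82 and -0.18 with LPS, and the methyltransferase gene Trmt10b at -2.81, -1.22 and -2.91 against 0.41, -0.46 and -0.56. In both, overventilation array 2 was also below every LPS array. Without overventilation replicate 2 limma called 226 probes, 225 of them lower with overventilation and 138 of the 139 marked probes among them. The single higher one was Gsta2 (2.67, adjusted p = 0.0339). A second probe of a gene did not always follow the first. Naa50, an acetyltransferase gene, differed by -1.93 at 1 probe and by -0.33 at the other, and Napsa, the napsin A gene of type II cells, by -1.28 and 0.43.

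**Figure D5:**
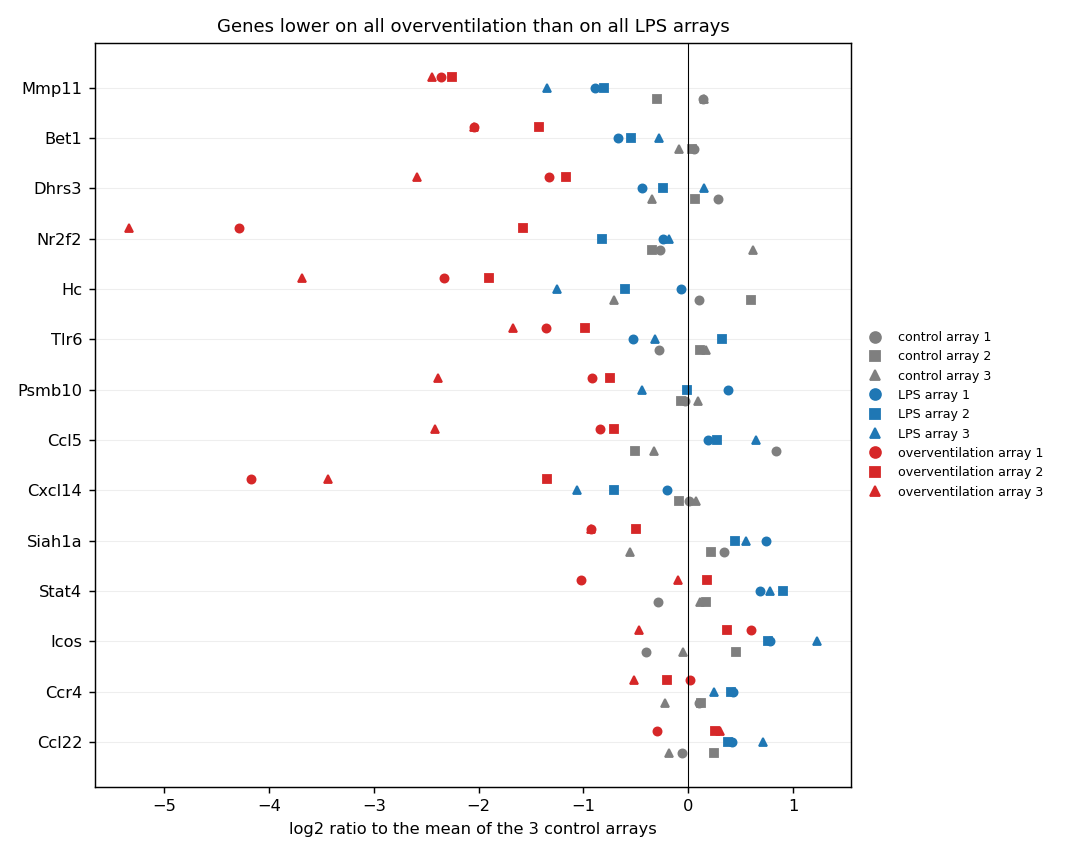
The x axis is the log2 ratio to the control mean, with 9 points per gene, 1 per array, as in the plot of genes higher with overventilation. For all 14 genes the red overventilation points lie to the left of the blue LPS points; at Nr2f2 and Cxcl14 overventilation arrays 1 and 3 lie far below array 2.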

How the data were processed

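RNA of mouse lung was measured on 9 arrays, and the table of all 9 was used. Its deposited values are ratios on a linear scale, each probe divided by the geometric mean of the 3 controls (tested on the values). For the array, the scanner and the authors' scaling between arrays, details were not given in the sources used here. At 4690 probes 2 or more arrays held the fixed floor pattern (tolerance 1e-06, log2), and values there were raised to the highest floor (a ratio of 2.22, on overventilation array 3) and centred on the control mean again. Probes above it on 3 or more arrays, or with no floor seen (5322), were tested. The plan was kept, and the log2 ratios were fitted with limma 3.58.1 in R 4.3.3 (3 group means, all 9 arrays, eBayes, two-sided, Benjamini-Hochberg over 5710 probes, threshold 0.05); the code was tested on simulated data. The number of arrays limits the precision.

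Symbols came from the platform's annotation table (8983 probes with 1 symbol, 1 with several, 1028 with none); 8975 gene IDs matched the reference table. For a list, each gene had 1 probe, that with most arrays above the floor, then the lowest number. No gene list was tested as a set: the 31 response lists and 21 marker lists are described by counts and medians. The compared groups, genes and lists were chosen with earlier results of these data known. Genes are named by rule: the 12 widest gaps between groups in each direction, the 8 widest in each direction for probes apart from both other groups, up to 4 members of a list without overlap and up to 2 in the other direction, 37 genes fixed by name, and examples above and at the array floors. Alternatives covered the arrays in the fit, scaling, filter, floor, lone low spots, array weights, the replicate number and each array left out.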

Additional observations from a re-analysis of the deposited data

Results flagged for a closer look

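At Midn, the gene of the nuclear protein midnolin, each injury lay on its own side of all 3 controls. The 3 LPS arrays were at -0.60, -0.41 and -0.28, the 3 overventilation arrays at 0.34, 0.08 and 0.97 and the controls between -0.01 and 0.02. The overventilation minus LPS difference of 0.891 was tested by limma and did not pass (Benjamini-Hochberg adjusted p = 0.494). The lowest overventilation value was near the highest control value, and no second probe of the gene was tested. Groups of 3 arrays were not searched for outlying samples.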

How the results depend on the processing

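The count of probes past the adjusted threshold stayed at 0 in 20 of 21 alternatives and was 0 to 226 when 1 array at a time was left out, the 226 arising without overventilation replicate 2. The number of arrays and the unknown scaling limit every value here, and for each change below the cause was not tested. Probes at an unadjusted p under 0.05 that were higher with overventilation numbered 126 with the 6 arrays alone, 58 with quantile normalization, 71 without overventilation array 3 at a lower floor, and 338 with the replicate block; the lower ones numbered 159 with quantile normalization and 136 without array 3 at the lower floor. With the block the lower ones numbered 502, and its own count of calls was 0. Deviations from the group means of same-numbered overventilation and LPS arrays correlated at 0.50, 0.21 and 0.04. With the same-numbered control the LPS arrays correlated at 0.50, 0.25 and 0.20 and the overventilation arrays at 0.51, 0.13 and 0.03. The labels name no pairing, so the main fit left the numbers out. What same-numbered arrays share was not tested. With quantile normalization overventilation lay above all 6 other arrays at 84 probes and below them at 100, and LPS below at 20. With each array's own floor 15 probes were above it with overventilation alone and 4 with LPS alone. Leaving out 1 array at a time gave 65 to 320 higher and 116 to 587 lower probes at an unadjusted p under 0.05, 327 to 820 without overlap above and 312 to 910 below, 185 to 525 and 188 to 701 apart for overventilation (above and below), 25 to 198 and 39 to 204 apart for LPS, and 0 to 3 and 0 to 69 in the contrasts of the floor. The median difference of the interferon list was -0.12 with quantile normalization. That of the chemokine list was 0.0014 with it, 0.095 with no filter, 0.14 with array weights and -0.024 without array 3 at the lower floor. That of the stretch list was 0.15 with no filter. With 1 array left out these medians ran from -0.074 to 0.25 (interferon), -0.050 to 0.25 (chemokine), 0.34 to 0.82 (immediate early) and 0.56 to 1.13 (stretch), and those of the feedback and NF-kB lists from -0.01 to 0.24 and from 0.23 to 0.87.

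Of 2276 values of single genes under alternatives 16 turned sign, at 9 probes. With 1 array left out the differences ran from -0.68 to 0.32 for Ifit1, -0.90 to 0.11 for Mx1, -0.66 to 2.02 for Plaur, -0.11 to 1.23 for Cxcl9, -0.40 to 1.09 for Cxcl1, -0.39 to 0.57 for Il1b and -0.55 to 0.98 for Nfkbia, and from -0.58 to 0.030 and -0.063 to 0.73 for the second probes of Naa50 and Napsa. The last 2 stood at 0.030 and -0.063 without overventilation replicate 3, at either floor. Array weights gave -0.024 for Il1b and -0.095 for Nfkbia, and Nfkbia was at -0.55 with lone low spots set to missing. Alternatives chosen after seeing the data were the lower floor without overventilation replicate 3 and leaving out the marked probes, which left 306 probes without overlap above and 267 below.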

Other observations

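In other gene groups most tested members overlapped between the injuries. Heat shock protein genes had a median difference of -0.40 over 26 tested genes. It was -0.26 without 5 genes that had a lone low spot on LPS array 2 or were low on overventilation arrays 1 and 3 only. Without overlap on the higher side were 3 (Hspb8, Hspb2 and Dnajb1, 11.5%, among 5.88% of all genes). On the lower side was 1 (3.85%, near the 5.54% of all genes), Dnajc3, which was low on overventilation arrays 1 and 3 only. Dnajb1, a cofactor of the chaperone HSP70, lay at 1.00, 0.92 and 1.82 with overventilation and at 0.39, 0.64 and -0.28 with LPS, so the members without overlap and the median of this list differ in sign. Genes of oxidative phosphorylation had a median difference of 0.27 over 49 genes, with 5 higher (10.2%) and 1 lower (2.04%) without overlap. Cytosolic ribosomal protein genes had one of -0.06 over 55 genes, with 4 higher (7.27%) and 5 lower (9.09%). The shares of all genes were 5.88% higher and 5.54% lower. Coagulation genes had a median difference of 0.48 over 13 genes and 1 without overlap, which was higher (7.69%, near the 5.88% of all genes). Their list median was 0.21, 0.12 and 0.42 with LPS and 0.48, 1.05 and 1.47 with overventilation, which do not overlap. Among growth factor genes Inhba, the activin A subunit, lay at 1.48, 1.28 and 1.28 with overventilation and at -0.60, 0.52 and 0.92 with LPS. Angpt2, the endothelial destabilising factor angiopoietin 2, differed by 0.52, and the oxygen sensor gene Egln3 by 0.75, both without overlap. The gaps were narrow, at 0.03 and 0.002. Control array 2 lay at 0.37 for Angpt2 and 0.53 for Egln3, above overventilation arrays 1 and 2 in both.

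The markers of cell types held few tested genes. Neutrophil markers had a median difference of -0.06 over 6 genes and monocyte markers -0.98 over 4 genes, the latter 0.27 without overventilation array 3 at a lower floor. Adipose markers had one of 0.05 over 5 genes, and their median was -1.66 on control array 3 against 0.75 and 0.91 on the other controls. By probe number, the 291 lone low spots of LPS array 2 were uneven, with 33 among the first 1000 probes, 6 among numbers 4001 to 5000 and 55 among numbers 8001 to 9000. The position of probes on the array is not used here.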
